A study of Homo sapiens with 6 samples.

Results

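L1CAM and related immunoglobulin adhesion molecules were examined in PC9 cells, a human lung adenocarcinoma line driven by mutant EGFR, before and after they had been made drug-tolerant persister cells. The genes were chosen by name: L1CAM, CHL1, NRCAM, NFASC, NCAM1, NCAM2, ALCAM, MCAM, ICAM1 and VCAM1. Of these 10 genes, 9 had a row under their own symbol among the 36459 gene rows, and 16 L1CAM transcripts were found among 188753 transcripts. MCAM had no row under its symbol, but its 17 annotated transcripts summed, in every library, to within 1 count of a row carrying the clone-based name AP002956.1. MCAM was therefore taken from gene counts summed over transcripts.

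The study sequenced poly-A RNA of parental PC9 cells and of PC9 cells kept in erlotinib, which blocks the EGFR kinase, at 15 µM for 6 days. All libraries came from this single cell line, so both groups share its genotype. The 3 parental libraries were independent cultures, whereas the 3 persister libraries were pooled from 9 independent cultures, so each persister value already averages several cultures. Between 29476725 and 34893782 counts were assigned to genes per library, and gene levels are given as CPM, the counts of a gene for every 1000000 counts of its library after TMM scaling. In bulk RNA, fewer cells expressing a gene and less RNA per cell cannot be told apart.

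Immunoglobulin adhesion molecules are cell-surface proteins whose folded extracellular domains bind the same molecule on a neighbouring cell, a related molecule, or an integrin. The L1 family (L1CAM, CHL1, NRCAM, NFASC) is best known from axon growth and the node of Ranvier, and is anchored to the spectrin cytoskeleton through ankyrin. L1CAM is also made by many carcinomas, where its shed ectodomain and its binding to integrins have been linked to migration. ICAM1 and VCAM1 are the endothelial ligands on which leukocytes arrest during inflammation, and both are textbook targets of NF-kappa B.

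L1CAM RNA exists in forms that differ by a pair of very short coding exons. Neurons include both, and cells outside the nervous system usually skip both. The longer of the pair lies near the N-terminus and affects ligand binding, and the shorter completes a cytoplasmic sorting signal read by the AP-2 endocytosis adaptor. The junctions are shown because they separate L1CAM-205, which holds both short exons, from L1CAM-202 and L1CAM-203, which lack both and differ from each other in their ends. Each line is the transcript strand, 5′ to 3′, on GRCh38 (GENCODE 44), with 20 bases of flanking exon on each side. Capitals mark the bases of the short exon, and the lines without capitals are the junctions that skip it. The upstream short exon has 15 bases at chrX:153873228-153873242 (minus strand, exon 3 of L1CAM-205), and the downstream one has 12 bases at chrX:153863368-153863379 (minus strand, exon 28 of the same transcript).
L1CAM-205 exon 3: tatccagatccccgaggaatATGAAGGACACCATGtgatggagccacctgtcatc
L1CAM-202 junction of exons 1 and 2: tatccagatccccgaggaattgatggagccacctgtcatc
L1CAM-205 exon 28: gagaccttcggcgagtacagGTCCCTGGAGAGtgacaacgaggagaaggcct
L1CAM-202 junction of exons 25 and 26: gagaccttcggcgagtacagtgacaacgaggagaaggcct

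L1CAM showed the largest rise of the tested members, NRCAM, MCAM and ICAM1 rose by less, and ALCAM was the one member that fell. NCAM1 was scarce and was higher in persister cells on few counts. CHL1, NFASC and NCAM2 were at or near the limit of detection in both conditions, and VCAM1 had no count in any library. Of the 9 members with a row, 5 passed the filter on low counts (L1CAM, NRCAM, NCAM1, ALCAM, ICAM1) and 4 did not (CHL1, NFASC, NCAM2, VCAM1). All 5 were called at an adjusted p under 0.01, with 4 higher and 1 lower in persister cells. Across all 14626 genes tested, 56.8% were called, 28.7% higher and 28.1% lower. The persister and parental libraries did not overlap for any of the 5 tested members, against 71.3% of all genes tested. MCAM, in the fit on counts summed from transcripts, was also called and higher, where 53.5% of 14463 genes were called and 26.9% were higher. With so many genes called, a call by itself says little about a member, and the sizes below carry more than the count.

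**Figure D1:**
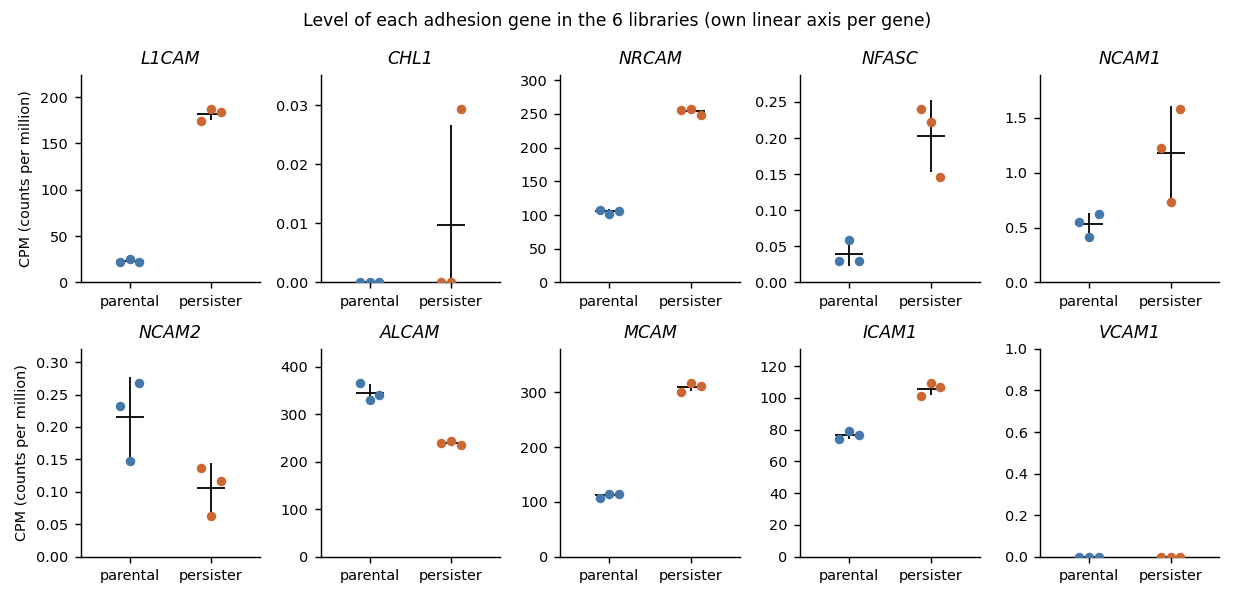
Level of each of the 10 adhesion genes in the 3 parental (blue) and 3 persister (orange) libraries, in CPM on a linear axis that starts at 0 and is scaled for each gene. Points are libraries, the horizontal bar is the mean and the vertical line 1 SD. L1CAM, NRCAM, MCAM and ICAM1 sat higher and ALCAM lower in every persister library, while NFASC, NCAM2, CHL1 and VCAM1 were under 0.3 CPM throughout.

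L1CAM (ENSG00000198910, chrX:153861514-153886173, minus strand, GRCh38) stood at 21.6, 25.8 and 21.9 CPM in parental replicates 1 to 3 and at 174, 187 and 184 CPM in persister replicates 1 to 3. Every persister library lay far above every parental one, and the spread within each condition was small beside the gap. The mean rose from 23.1 ± 2.31 CPM to 182 ± 6.52 CPM (SD, n = 3 each), a 7.86-fold difference, or a log2 fold change of 2.98 (SE 0.0643, adjusted p = 5.65e-11, quasi-likelihood test of edgeR, Benjamini-Hochberg adjusted). Among the 14626 genes tested this was rank 90 by size of rise and rank 40 by p-value. The counts behind it were 745, 878 and 739 in parental and 5093, 5877 and 6304 in persister libraries.

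NRCAM, the L1 relative that gathers sodium channels and ankyrin G at nodes, was the other L1-family gene present at a substantial level. It measured 108, 102 and 106 CPM in parental and 256, 257 and 249 CPM in persister libraries. The conditions did not overlap, and the persister values were tightly grouped. The mean went from 105 ± 2.80 to 254 ± 3.94 CPM (SD, n = 3 each), a 2.41-fold rise with a log2 fold change of 1.27 (SE 0.0368, adjusted p = 3.92e-10, same test). NRCAM ranked 124 by p-value but 595 by size of rise among all genes tested.

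NFASC, which encodes neurofascin of the axon initial segment, and CHL1, the close homologue of L1, did not pass the filter. NFASC had 1, 2 and 1 counts in parental and 7, 7 and 5 counts in persister libraries. Persister libraries were higher, yet the totals of 4 and 19 counts gave a ratio of 5.11 per counts sequenced, with an exact 95% interval of 1.7 to 20.7 that covers counting error only. Fitted without any filter, NFASC had a log2 fold change of 2.26 with an adjusted p of 0.0177 by edgeR's quasi-likelihood test, which misses the limit of 0.01. CHL1 had a single count, in persister replicate 3. No statement on a change in CHL1 is possible at this depth.

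NCAM1, the neural cell adhesion molecule that carries polysialic acid in developing brain, was scarce. Its counts were 19, 14 and 21 in parental and 36, 23 and 54 in persister libraries, or 0.552, 0.411 and 0.624 CPM against 1.23, 0.731 and 1.58 CPM. All 3 persister libraries were above all 3 parental ones, although persister replicate 2 lay close to the highest parental library. The mean went from 0.529 ± 0.108 to 1.18 ± 0.427 CPM (SD, n = 3 each), with a log2 fold change of 1.16 (SE 0.316, adjusted p = 0.00719, quasi-likelihood test of edgeR, Benjamini-Hochberg adjusted). This call rested on single libraries: with each of the 3 parental replicates left out in turn, the adjusted p was 0.0127, 0.024 and 0.0144, and without persister replicate 1 or 3 it was 0.0232 and 0.0445. With limma voom it was 0.013. NCAM2, the olfactory relative, had 8, 5 and 9 counts in parental and 4, 2 and 4 counts in persister libraries. The ratio of its totals, 22 and 10, was 0.489 with an exact 95% interval of 0.207 to 1.08, so no difference was detectable at this depth.

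**Figure D2:**
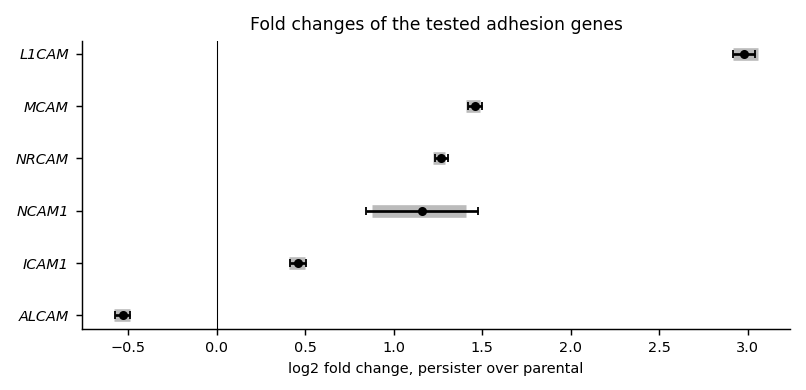
Log2 fold change of each tested adhesion gene, persister over parental, with the standard error as a whisker and the range over the alternative settings as a grey band. The MCAM band comes from fits of the row AP002956.1. L1CAM lies at 2.98 and ALCAM at -0.53, and the band of NCAM1, from 0.88 to 1.41, is the widest.

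ALCAM (CD166), a ligand of CD6 that also binds itself between epithelial cells, went the other way. It measured 365, 330 and 341 CPM in parental and 239, 244 and 236 CPM in persister libraries. All persister libraries were lower, with a wide gap to the lowest parental library. The mean was 345 ± 18 CPM in parental and 240 ± 4.21 CPM in persister cells (SD, n = 3 each), a ratio of 0.694 and a log2 fold change of -0.53 (SE 0.0422, adjusted p = 1.02e-06, quasi-likelihood test of edgeR, Benjamini-Hochberg adjusted).

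MCAM (CD146), an adhesion molecule of endothelium and melanoma, measured 107, 115 and 115 CPM in parental and 301, 316 and 311 CPM in persister libraries. The conditions were far apart relative to the spread within them. The mean rose from 112 ± 4.35 to 309 ± 8.01 CPM (SD, n = 3 each), 2.76-fold, with a log2 fold change of 1.46 (SE 0.0403, adjusted p = 7.80e-09, same test on counts summed from transcripts). The row AP002956.1 gave 1.47 with an adjusted p of 3.21e-10 in the fit of gene rows. MCAM overlaps CBL on the opposite strand, and whether counting used strand is not given in the sources used here. CBL itself had 8748 counts over the parental and 7329 over the persister libraries.

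ICAM1 measured 73.9, 79.1 and 76.8 CPM in parental and 101, 109 and 107 CPM in persister libraries. Each persister library exceeded each parental library, by a smaller margin than for L1CAM. The mean went from 76.6 ± 2.64 to 106 ± 3.88 CPM (SD, n = 3 each), a 1.38-fold rise with a log2 fold change of 0.46 (SE 0.0437, adjusted p = 3.67e-06, quasi-likelihood test of edgeR, Benjamini-Hochberg adjusted). VCAM1 was at 0 in all 6 libraries. Over each condition, 3 counts would correspond to 0.0294 CPM in parental and 0.0316 CPM in persister cells, so VCAM1 may have been present below those levels, which cover counting error only.

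The promoters of ICAM1 and VCAM1 are printed because these genes share a reputation as NF-kappa B targets and stood at such different levels here. Each line gives the 250 bases before the RefSeq start site on GRCh38.p14, 5′ to 3′ on the plus strand, for chr19:10270870-10271119 (ICAM1) and chr1:100719492-100719741 (VCAM1). Capitals mark matches to the motifs searched on both strands: the NF-kappa B consensus, a looser kappa B pattern (whose matches can overlap those of the consensus), GGAANTTCC and the TATA box TATAAA, whose forward and reverse matches overlap near the VCAM1 start.
ICAM1: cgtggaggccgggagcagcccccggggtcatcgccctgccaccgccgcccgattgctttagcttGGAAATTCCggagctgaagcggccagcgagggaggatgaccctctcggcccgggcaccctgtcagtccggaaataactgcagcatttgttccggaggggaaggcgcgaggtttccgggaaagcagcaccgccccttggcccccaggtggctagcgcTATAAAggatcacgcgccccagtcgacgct
VCAM1: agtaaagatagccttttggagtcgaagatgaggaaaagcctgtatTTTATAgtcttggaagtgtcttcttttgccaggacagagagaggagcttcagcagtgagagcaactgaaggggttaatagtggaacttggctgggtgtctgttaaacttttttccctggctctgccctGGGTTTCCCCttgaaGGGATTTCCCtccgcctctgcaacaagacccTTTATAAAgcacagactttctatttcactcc

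In the ICAM1 window, GGAANTTCC began 186 bases before the start site and TATAAA began 30 bases before it. The VCAM1 window held the looser kappa B pattern at 77 and at 62 bases before the start, the latter also matching the NF-kappa B consensus, and TATAAA at 29 bases before it. TATAAA was the one motif found in both windows: the ICAM1 window had no match to the NF-kappa B consensus or the looser pattern, and the VCAM1 window none to GGAANTTCC. GGAANTTCC was searched alongside the kappa B patterns. No match to those patterns does not mean that the ICAM1 window lacks a kappa B site. The windows also differed in base composition, with 24 CG dinucleotides for ICAM1 and 5 for VCAM1 in the whole 300-base window (250 bases before and 50 from the start on), against a median of 14 over all windows. Over 35116 such promoter windows, 5.91% held the NF-kappa B consensus, 0.965% GGAANTTCC, 7.24% the looser pattern and 11.5% TATAAA. Of the other members, MCAM had the NF-kappa B consensus 31 bases after its start. L1CAM had the looser pattern 87 bases before the RefSeq start that matches L1CAM-202, and 17 bases before another RefSeq start. No window searched covered the annotated start of L1CAM-203 or L1CAM-205. ALCAM, CHL1, NCAM2, NFASC and NRCAM had none of these motifs in the window. A match describes letters only and is not evidence of binding.

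Levels of different genes were compared only per transcript length (transcript counts divided by annotated length and scaled to a total of 1000000 in every library, akin to TPM). In parental cells the order was ALCAM (155 ± 7.59), MCAM (67.2 ± 4.94), ICAM1 (50.8 ± 1.86), NRCAM (37.9 ± 2.61) and L1CAM (10.1 ± 1.27; SD, n = 3 each). In persister cells it was MCAM (208 ± 0.785), ALCAM (114 ± 2.49), NRCAM (93.0 ± 2.48), L1CAM (78.7 ± 2.46) and ICAM1 (71.5 ± 0.720). Neighbours among these 5 genes did not overlap in either condition. MCAM and ALCAM thus exchanged places at the head of the order, and L1CAM passed ICAM1. The means of the remaining members were under 1 on this scale in both conditions, with NCAM1 at 0.349 ± 0.184 in parental and 0.711 ± 0.351 in persister cells, and at 1.11 in persister replicate 3. With 200 bases taken off each length, NCAM2 stood above NCAM1 in parental cells (0.404 and 0.323). NCAM1 and NCAM2 overlapped in parental libraries, as did NFASC and NCAM2 in persister libraries and CHL1 and VCAM1 in both.

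L1CAM RNA was assigned mainly to forms that skip both short exons, in both conditions. L1CAM-202 (5004 bases, 26 exons, neither short exon) had 677, 637 and 623 estimated counts in parental and 3884, 4866 and 5154 in persister libraries. It held 82.0% of pooled L1CAM transcript counts in parental and 80.5% in persister cells. Its log2 fold change was 2.92 (SE 0.0716, adjusted p = 2.13e-05, edgeR's quasi-likelihood test across 54499 transcripts), close to that of the gene. Of 4 L1CAM transcripts tested, 2 were called, both higher, where 7.8% of all transcripts were called and 3.89% were higher.

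L1CAM-203 (4655 bases, 27 exons, neither short exon) had 50, 118 and 105 counts in parental and 625, 412 and 722 in persister libraries. These did not overlap, but counts varied more than for L1CAM-202. The log2 fold change was 2.76 (SE 0.384, adjusted p = 0.00612, edgeR's quasi-likelihood test). This call did not hold without parental replicate 2 or 3 or any one of the 3 persister replicates, when the adjusted p lay between 0.0148 and 0.0297. L1CAM-204, a 692-base transcript, had 7, 16 and 10 counts in parental and 23, 60 and 61 in persister libraries, and its log2 fold change of 2.17 was not called (adjusted p = 0.0401, same test).

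L1CAM-205 (5138 bases, 29 exons) was, as annotated, the only form with counts that holds both short exons. Its counts were made on version 6 of this transcript, whereas the length and exons given are those of version 7. How these versions differ was not examined. L1CAM-205 was assigned 0, 102 and 0 counts in parental and 535, 517 and 322 in persister libraries. Parental replicate 2 alone carried all of the parental counts, and every persister library was above it. As a share of L1CAM transcript counts the form stood at 0, 11.6 and 0% in parental and 10.5, 8.8 and 5.11% in persister libraries, where 3 counts would be 0.403% in parental replicate 1 and 0.406% in parental replicate 3. The shares of the conditions overlapped, at 3.87 ± 6.71% and 8.14 ± 2.76% (SD, n = 3 each). Its log2 fold change of 3.85 carried an SE of 1.56 and was not called (adjusted p = 0.171, same test). The long forms that skip both exons, L1CAM-202 and L1CAM-203, made up 97.6, 86.0 and 98.5% in parental and 88.5, 89.8 and 93.2% in persister libraries. L1CAM-201, named outside the rule because it is annotated with the upstream short exon alone, had 0 counts in all libraries.

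**Figure D3:**
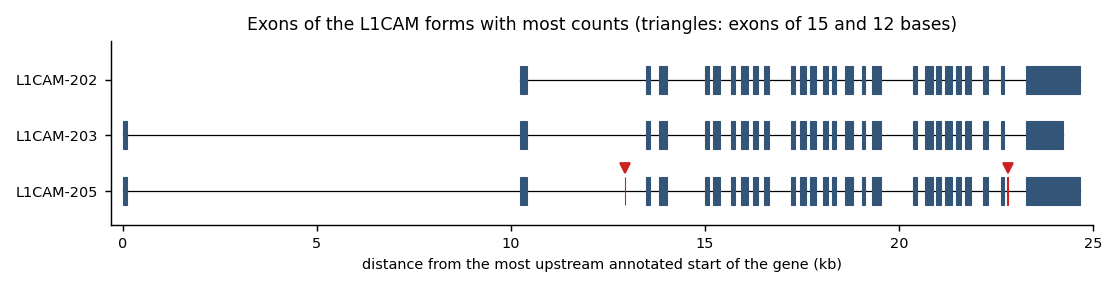
Exon maps, to scale, of the 3 L1CAM transcripts with most counts, drawn in the direction of transcription in kilobases from the most upstream annotated start. Boxes are exons and red triangles mark the exons of 15 and 12 bases that L1CAM-205 holds and L1CAM-202 and L1CAM-203 lack.

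**Figure D4:**
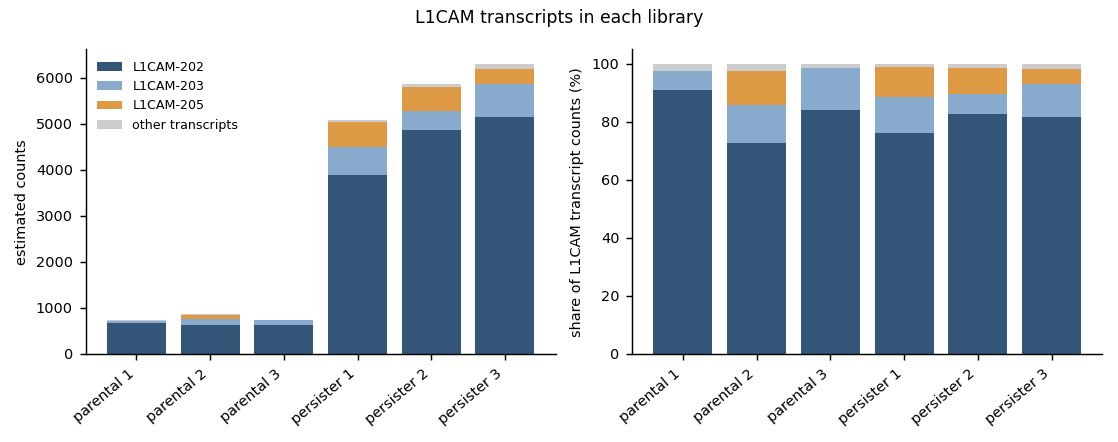
Estimated counts (left) and share of all L1CAM transcript counts in percent (right) for L1CAM-202, L1CAM-203, L1CAM-205 and the remaining transcripts in each library. L1CAM-202 is the largest segment in all 6 libraries, and the orange segment of L1CAM-205 is missing from parental replicates 1 and 3.

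The annotated start of L1CAM-202 lies at the upstream boundary of an exon that L1CAM-203 and L1CAM-205 splice onto an exon further upstream. Reads counted for L1CAM-202 therefore do not show where transcription began. Forms with the upstream exon held 6.71, 25.1 and 14.2% of counts in parental and 22.8, 15.8 and 16.6% in persister libraries, and the conditions overlapped.

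Unequal change among transcripts of a gene was tested for the 5 members with several tested transcripts, and none was called by edgeR's differential usage test (Simes p per gene, Benjamini-Hochberg adjustment), where 1.88% of 10542 genes were called. In counts simulated with dispersion 0.01, the usage test recovered 60.5% of genes whose leading transcript rose by 1 on the log2 scale. That setting, the variation between libraries beyond counting error, was the same for all transcripts and left out error in assigning reads to forms. Recovery may be lower for forms whose real counts varied more, such as L1CAM-205. A member without a call may therefore still have changed in usage. No member had an unadjusted p under 0.05, and the smallest was 0.152, for ALCAM. L1CAM gave 0.925. Without parental replicate 2, the library with L1CAM-205 counts, L1CAM was called with an adjusted p of 0.000283.

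The leading transcripts of NRCAM, MCAM, ICAM1 and ALCAM were called in the direction of their genes. NRCAM-201 had 2032, 1968 and 1996 counts in parental and 4558, 4747 and 5188 in persister libraries, and held 57.5% and 61.6% of pooled counts (log2 fold change 1.36, adjusted p = 2.13e-05, edgeR's quasi-likelihood test). NRCAM-202 held 35.8% and 32.6% and rose by 1.12 on the log2 scale (adjusted p = 0.000497, same test). Single transcripts dominated MCAM (MCAM-201, 96.3% and 95.0%, log2 fold change 1.42) and ICAM1 (ICAM1-201, 98.4% and 99.0%, log2 fold change 0.45), with adjusted p-values of 4.40e-05 and 0.00331. ALCAM-201 held 79.2% and 79.3% and fell by 0.55 on the log2 scale (adjusted p = 0.000268). NCAM1-201 led NCAM1 in both conditions without being called (log2 fold change 1.64, adjusted p = 0.423).

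Genes for the partners that link L1-type molecules to the cytoskeleton, to guidance receptors and to the matrix moved in both directions. Of 40 listed, 31 were tested: 13 rose, 9 fell and 9 were not called. The shares called among all genes tested were 28.7% higher and 28.1% lower. Log2 fold changes of the 31 genes had a median of 0.22, beside -0.0061 for all genes tested. The spectrin chains to which ankyrin ties L1CAM were among the risers: SPTBN1 went from 381 ± 5.80 to 1100.0 ± 26.5 CPM and SPTAN1 from 210.0 ± 4.05 to 617 ± 22.3 CPM (log2 fold changes 1.53 and 1.55, adjusted p-values 7.78e-11 and 1.36e-10). ANK2, which encodes ankyrin B, rose from 1.91 ± 0.0378 to 14.9 ± 0.730 CPM (2.96, adjusted p = 6.13e-10). FGFR1, a receptor kinase that L1-type molecules engage at the membrane, rose from 1.70 ± 0.265 to 16.3 ± 0.757 CPM (3.26, adjusted p = 1.01e-09). ANK3, for ankyrin G, stood at 50.6 and 51.2 CPM and was not called (adjusted p = 0.775). ANK3 was outside the naming rule and is given for its role, after its values were seen.

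Genes of semaphorin signalling on this list went both ways. Outside the naming rule and named after their values were seen, SEMA3E, a secreted semaphorin, and PLXNA1, a plexin receptor, rose by 0.53 and 0.34 on the log2 scale (adjusted p = 0.000219 and 0.000168, quasi-likelihood test of edgeR). NRP2, a neuropilin that receives class 3 semaphorins, fell by 1.71 on the log2 scale, from 61.4 ± 1.09 to 18.8 ± 0.661 CPM (adjusted p = 3.10e-10, same test). SEMA3B, another secreted semaphorin, fell by 1.40, from 20.6 ± 1.31 to 7.79 ± 0.748 CPM (adjusted p = 9.24e-08). LGALS1, the lectin galectin-1, fell by 0.87 and SDCBP, the scaffold syntenin, by 0.44 (adjusted p = 2.08e-08 and 4.19e-06).

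L1CAM and its relatives are cut at the membrane by ADAM metalloproteases, plasmin and gamma-secretase. Of 30 listed proteases and their inhibitors, 28 were tested (median log2 fold change 0.12). Among the 28, 13 rose, 6 fell and 9 were not called, where 28.7% of all genes tested were called higher and 28.1% lower. The metalloprotease ADAM12 rose from 18.3 ± 0.339 to 54.3 ± 2.23 CPM and the aspartyl protease BACE2 from 69.3 ± 0.744 to 107 ± 2.27 CPM (log2 fold changes 1.57 and 0.63). The metalloprotease inhibitors TIMP3 and TIMP2 rose too, by 1.31 and 0.85, while TIMP1 fell by 0.75. The plasminogen activators both fell: PLAT from 45.6 ± 0.124 to 6.61 ± 0.217 CPM and PLAU from 156 ± 2.90 to 86.5 ± 1.68 CPM (log2 fold changes -2.78 and -0.85). MMP7 was at 1.05 ± 0.110 CPM in parental and 0.0309 ± 0.0318 CPM in persister cells and was called lower. The largest adjusted p among these 8 genes was 4.55e-06 (edgeR's quasi-likelihood test). Named after their values were seen, because they are the best-known L1CAM sheddases, ADAM10 rose by 0.41 on the log2 scale (adjusted p = 3.63e-06), and ADAM17 had a log2 fold change of 0.10 and was not called (adjusted p = 0.0435).

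Of 14 listed genes for integrins and other counter-receptors of ICAM1 and VCAM1, 8 were tested (median log2 fold change -0.019). Among the 8, 2 rose, 2 fell and 4 were not called, where 28.7% of all genes tested were called higher and 28.1% lower. ITGAM, the alpha chain of the leukocyte integrin Mac-1, rose from 1.2 ± 0.263 to 10.7 ± 0.764 CPM (log2 fold change 3.15, adjusted p = 9.56e-09). Its beta partner ITGB2, outside the naming rule, stood at 4.32 and 5.08 CPM and was not called (adjusted p = 0.154). ITGB1, the beta chain of the VCAM1 receptor VLA-4 and of many matrix receptors, rose from 860.0 ± 38 to 1400.0 ± 35.4 CPM (0.70, adjusted p = 7.08e-08). ITGA4, its alpha partner in VLA-4, was at 0.705 ± 0.102 and 0.279 ± 0.120 CPM (-1.35, adjusted p = 0.0051), a call on at most 26 counts in a library that did not hold without parental replicate 1 or 3, without persister replicate 1 or 3, or with DESeq2. MUC1, a mucin that binds ICAM1, fell by 0.67.

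**Figure D5:**
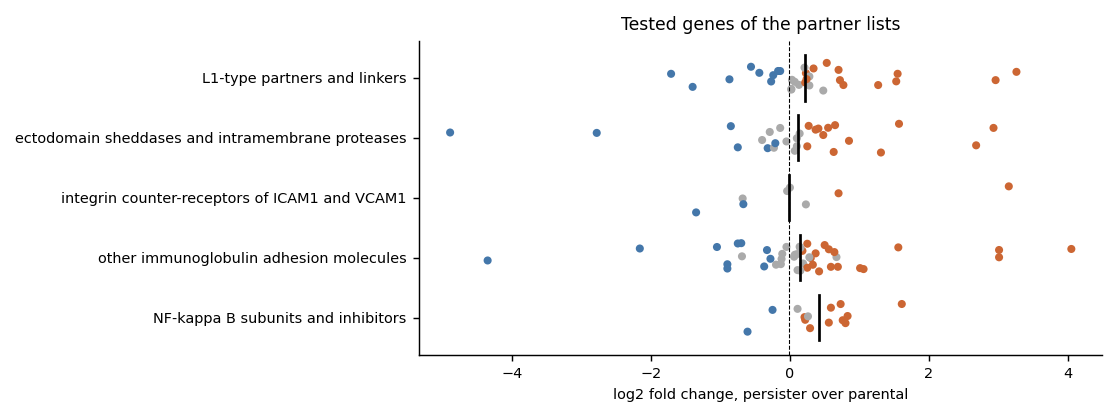
Log2 fold changes, persister over parental, of the tested genes in the 5 lists, with each point a gene and the black bar the list median. Orange points were called higher, blue lower and grey not called, and every list holds genes of both colours.

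Of 68 other immunoglobulin adhesion molecules listed, 44 were tested (median log2 fold change 0.15). Among the 44, 18 rose, 10 fell and 16 were not called, where 28.7% of all genes tested were called higher and 28.1% lower. NEGR1, a neuronal growth regulator anchored in the membrane by lipid, rose from 1.48 ± 0.244 to 12 ± 0.606 CPM (3.01, adjusted p = 3.81e-09). IGSF3, ROBO1, the receptor for Slit guidance cues, and SIRPA, the receptor for CD47, rose by 1.06, 1.01 and 0.69. PECAM1, the endothelial and platelet molecule CD31, fell from 4.37 ± 0.394 to 0.214 ± 0.0873 CPM (-4.35, adjusted p = 4.52e-08). MAG, of myelin, MPZL2, of epithelium, and ESAM, of endothelial junctions, fell by 2.16, 1.05 and 0.90.

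All 14 listed genes for NF-kappa B subunits and regulators, which include inhibitors and kinases, were tested (median log2 fold change 0.42). Among the 14, 10 rose, 2 fell and 2 were not called, where 28.7% of all genes tested were called higher and 28.1% lower. RELB and NFKB2, which pair in the alternative pathway, rose from 12.5 ± 1.18 to 38.1 ± 0.887 CPM and from 30.3 ± 1.70 to 52.6 ± 1.27 CPM (log2 fold changes 1.61 and 0.80, adjusted p-values 5.67e-09 and 1.85e-07). RELB was not called on counts summed from transcripts, where its log2 fold change was 0.71 (adjusted p = 0.109). NFKB1, the precursor of p50, rose by 0.73, RELA by 0.21 and REL by 0.29. The REL call was lost in 8 of 15 alternatives, in which its log2 fold change ranged from 0.21 to 0.39. The feedback inhibitor TNFAIP3 rose by 0.83, while BCL3 fell by 0.61 and the kinase IKBKB by 0.25. The IKBKB call was lost in 4 of 15 alternatives (DESeq2, without parental replicate 2 and without persister replicate 2 or 3), with adjusted p-values up to 0.0286. These changes stood beside a 1.38-fold rise of ICAM1 and no count of VCAM1.

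The 5 genes named here had profiles across the 6 libraries most like that of L1CAM, by root mean square distance between centred log2 CPM values. They were SCARF2 (distance 0.0767), ROBO4 (0.0813), SLC16A9 (0.0824), TAGLN (0.0936) and WFDC21P (0.0954). TAGLN, which encodes the actin-binding protein transgelin, went from 14.6 ± 0.228 to 115 ± 3.39 CPM. SCARF2 went from 1.1 ± 0.154 to 9.36 ± 0.409 CPM and SLC16A9 from 0.411 ± 0.0276 to 3.46 ± 0.193 CPM. ROBO4 stood at 0.0392 CPM in parental cells, a handful of counts in all, and at 0.706 CPM in persister cells (log2 fold change 4.05). The log2 CPM values carried a prior count of 2, which shrinks differences of genes with few counts. The short distance of ROBO4 is therefore not a match in fold change.

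Several members are also made by other cell types, so markers of those types were summed in each library. The 8 fibroblast markers summed to between 10.5 and 11 CPM in parental and between 27.4 and 30.8 CPM in persister libraries, nearly all of it COL1A1, and COL3A1 was at 0 in all. The neural and glial markers reported here summed to 168 to 196 CPM and 293 to 301 CPM, nearly all of it MAP2, and ELAVL4, SNAP25 and SOX10 were at 0 in all libraries. The 8 endothelial markers fell in sum, from between 8.37 and 9.12 CPM to between 4.59 and 5.06 CPM, with CLDN5 at 0. The 8 leukocyte markers went from between 82.9 and 87.1 CPM to between 27.5 and 31.1 CPM, mostly CD68, with CD3E at 0. Of these lists, only 2 fibroblast, 2 neural, 3 endothelial and 5 leukocyte markers passed the filter and were tested. Among those tested, 2 fibroblast, 1 neural and 1 endothelial marker were called higher, and 1 endothelial and 2 leukocyte markers were called lower. Over all genes tested, 28.7% were called higher and 28.1% lower. The part of these markers in the member differences was not tested.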

How the data were processed

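RNA-seq libraries of 3 parental and 3 persister PC9 samples were analysed. Per the study's methods and submitters' notes, the authors trimmed the paired-end reads, pseudoaligned them with Kallisto 0.46.1 to an Ensembl transcriptome of GRCh38 and used Sleuth 0.30.0 for their own tests. The authors deposited a table of estimated counts for genes and another for transcripts, already rounded to whole numbers, which share ambiguous reads among transcripts by likelihood. Pseudoalignment assigns short exons indirectly, so counts of near-identical forms are less certain than gene totals.

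From these counts, genes and transcripts were tested with edgeR 4.0.16 in R 4.3.3 (filterByExpr, TMM, quasi-likelihood F-test, Benjamini-Hochberg adjustment over all features tested, limit 0.01), and transcript usage with diffSpliceDGE. CPM values use library sizes scaled by TMM. Scripts were tested on simulated data. Transcript names, lengths and exons came from GENCODE 44, which matched 95.8% of transcript counts. Promoters came from RefSeq and matched 9 of the 10 members. The sources used here held no protein sequences.

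Members and gene lists were chosen with earlier results of these data known. Named genes were all 10 members, up to 4 called genes per direction with the smallest p-values in each list, the NF-kappa B subunits, the 5 genes nearest to L1CAM, L1CAM transcripts holding at least 1% of its counts and, for the other members, the leading transcripts and called transcripts holding 10% or more of the gene's counts. Alternatives were other normalizations, DESeq2 1.42.0, limma 3.58.1 (voom), other filters and limits, counts summed from transcripts, a replicate block and each library left out. At these depths, genes with under about 10 counts could not be compared. P-values measure the spread between these libraries only.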

Additional observations from a re-analysis of the deposited data

How the results depend on the processing

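L1CAM (log2 fold change 2.92 to 3.06), NRCAM (1.22 to 1.29), MCAM (1.41 to 1.49), ICAM1 (0.41 to 0.50) and ALCAM (-0.58 to -0.49) kept their direction and stayed under the limit in all 15 alternatives run for each, whereas NCAM1 (0.88 to 1.41) lost its call in 6 of 15. The alternatives for MCAM were fits of the row AP002956.1, so its value from summed transcripts was not varied. No called member or called list gene changed direction. Several list genes that were not called did change sign, among them ANK3 and SHTN1 (4 of 15 each) and SPN (9 of 14). With a fold change above 2 also required, 1691 genes and 3 members were called, in place of 8307 and 5. Leaving out 1 library at a time gave 7054 to 8407 genes, 4 to 5 members, 1 to 2 L1CAM transcripts and 0 to 1 members with unequal transcript usage. With 200 bases taken off each transcript length, the level of L1CAM per length was 8.67 in parental and 67.3 in persister cells. Upper-quartile scaling gave 3726 genes higher and 4562 lower, and library size alone 3604 and 4652, in place of 4193 and 4114. Transcript calls were the least stable, with 4252 in all, 1549 to 2649 when a library was left out and 813 with a replicate block.

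Deviations of same-numbered libraries correlated at 0.124, 0.024 and 0.022, so the numbers were not taken to pair samples. A replicate block gave 8671 genes, 5 members and 1 L1CAM transcript (L1CAM-203 then had an adjusted p of 0.0494), and 98 genes with unequal usage in place of 198. Pooling of persister cultures and single-library L1CAM-205 counts limit what the shares of L1CAM forms can show.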

Other observations

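Genes that mark simple epithelium moved in both directions. Of 8 such markers, all tested, 2 were called higher, 5 lower and 1 was not called. Over all genes tested, 28.7% were called higher and 28.1% lower. The summed level of the markers went from between 8040 and 8680 CPM in parental to between 6390 and 6760 CPM in persister libraries. The keratins KRT8, KRT18 and KRT19 fell by 0.80, 0.92 and 1.03 on the log2 scale, and KRT18 stood at 1890 ± 77.9 CPM in parental and 995 ± 34.3 CPM in persister cells (SD, n = 3 each). CLDN4, a tight-junction claudin, fell by 0.57. CDH1, which encodes E-cadherin, rose from 207 ± 1.91 to 314 ± 1.07 CPM and KRT7 from 1980 ± 72.0 to 2730 ± 105 CPM (log2 fold changes 0.60 and 0.46, adjusted p-values 4.34e-08 and 2.07e-06, quasi-likelihood test of edgeR, Benjamini-Hochberg adjusted).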
